A study of Mus musculus with 12 samples.

Results

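The lysyl oxidases and elastic fibre genes were examined as a set of 9 genes in isolated mouse glomeruli. They were the 5 lysyl oxidases (Lox, Loxl1, Loxl2, Loxl3 and Loxl4), elastin (Eln), fibulin-5 (Fbln5), Emilin1 and fibrillin-1 (Fbn1). Members were chosen by gene symbol in the count tables, and all 9 were found among 26264 symbols. All 9 also passed the filter on low counts, which kept 17002 genes. Male mice, 8 weeks old, of 2 substrains of the albino BALB/c strain were compared: BALB/cAjcl (Ajcl) and BALB/cByJcl (ByJcl). The 4 groups of 3 libraries were untreated Ajcl, untreated ByJcl, and each substrain on Day 5 after adriamycin (ADR; doxorubicin hydrochloride), given once into a vein at 10 mg/kg, with no transgene in any group. The untreated mice, called baseline below, are the only comparison for Day 5 here. No library is labelled as coming from saline-injected mice, so injection and ADR cannot be told apart. Glomeruli, the capillary tufts that filter blood in the kidney, were pulled out of digested kidney with magnetic beads perfused into the animal, so each value is a bulk level over podocytes, endothelium, mesangium and attached arteriole.

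Lysyl oxidases are copper-dependent enzymes that oxidise lysine side chains of collagen and elastin, and the products join into crosslinks that make the fibres insoluble. Elastin is laid down on a scaffold of fibrillin microfibrils. Fibulin-5 and Emilin1 bind at the surface of the forming fibre, and fibulin-5 is known to bind Loxl1. In the kidney, elastic fibres are known mainly from arteries and arterioles, and microfibrils also from the mesangium.

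The members lay on 8 chromosomes of GRCm39, with Eln and Emilin1 sharing chromosome 5. Loxl1 (ENSMUSG00000032334) was at chr9:58195014-58220495 on the minus strand, Loxl2 (ENSMUSG00000034205) at chr14:69846209-69933283 on the plus strand and Eln (ENSMUSG00000029675) at chr5:134731445-134776322 on the minus strand. Fbln5 (ENSMUSG00000021186) was at chr12:101712556-101785429 on the minus strand and Emilin1 (ENSMUSG00000029163) at chr5:31070717-31078622 on the plus strand. Loxl2, Loxl3 and Loxl4 each overlap a gene on the opposite strand (R3hcc1, Htra2 and R3hcc1l). Libraries were strand-specific but the strand setting of the counting is not given in the sources used here, so the counts of these 3 genes carry that uncertainty.

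The enzymes of the family are related through their catalytic end. The stretch below is the copper-binding part of the coding sequence in the GENCODE transcripts of GRCm39, 33 bases read 5′ to 3′ on the coding strand, with its 4 histidine codons in capitals. It is shown because it carries the copper-binding histidines that all members of the family have, and because reads over closely alike sequence could be shared between genes.
Loxl1: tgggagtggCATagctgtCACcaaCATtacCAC
Loxl2: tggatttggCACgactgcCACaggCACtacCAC
Loxl3: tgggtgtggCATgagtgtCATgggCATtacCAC
Loxl4: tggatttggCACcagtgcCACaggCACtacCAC
In each gene the stretch crossed a splice junction, for Loxl1 between exons 3 and 4 of 7 within chr9:58201003-58201664 and for Loxl2 between exons 10 and 11 of 14 within chr14:69919765-69926486. Against Loxl1, 8 bases differed in Loxl3, 11 in Loxl2 and 12 in Loxl4. Lox differed from Loxl1 by 1 base there, and the stretch encoded the same residues in both. Over the 10 pairs of family transcripts the longest exact run shared was between 12 and 32 bases, against reads of 150 bases.

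Libraries held 42198416 to 54687045 counts, and every ByJcl baseline library was deeper than every Ajcl baseline library. Ajcl Day 5 replicate 1, which the study left out for low glomerular purity, had the lowest ratio of podocyte to tubule marker CPM (the count of a gene scaled to the size of its library), 2.47 against 4.56 to 52.6 in the other 11 libraries. It was left out of the tests here too, and member results whose call or sign changes with it are given both ways. Podocyte markers reached 7029 to 20647 summed CPM over 8 genes in every library, so the glomerular label held. Levels below are CPM scaled with TMM factors over all 12 libraries. Fold changes are log2 values with their standard error (SE) from edgeR's quasi-likelihood test on 11 libraries, and a gene was called at a Benjamini-Hochberg adjusted p below 0.05 over the 17002 genes.

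Among the members, levels per kilobase of exon covered a wide range. In Ajcl baseline glomeruli Emilin1 stood highest at 33.7 ± 2.65 CPM per kb (SD, n = 3), with Loxl2 next at 31.5 ± 6.97, and the libraries of these neighbours overlapped. Eln followed at 13.4 ± 1.85 and Loxl3 at 6.00 ± 1.12 CPM per kb, each apart from its neighbours. Fbln5 and Fbn1 could not be separated at 3.52 ± 0.0418 and 3.51 ± 0.622 CPM per kb. Loxl1 was at 2.22 ± 0.202 and Lox, the founding member of the family, at 1.08 ± 0.174 CPM per kb. Loxl4 was lowest in all 4 groups, between 0.147 and 0.239 CPM per kb on average.

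The order changed in ByJcl at Day 5. Loxl1 was then the fourth at 6.61 ± 0.478 CPM per kb (SD, n = 3), overlapping Fbln5 at 6.55 ± 1.48, and Loxl3 was the sixth, after being the fourth in the other groups, at 5.71 ± 1.10. The libraries of Loxl3 there, at 4.49 to 6.62 CPM per kb, overlapped those of Loxl1, Fbln5 and Fbn1, so these places were not separated. Emilin1 and Loxl2 were again the highest at 70.2 ± 4.40 and 62.4 ± 5.42 CPM per kb, with overlapping libraries. Loxl2 supplied most of the summed lysyl oxidase level per kb in every group, 76.7% ± 1.86 in Ajcl baseline and 81.3% ± 1.83 in ByJcl Day 5 (SD, n = 3).

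**Figure D1:**
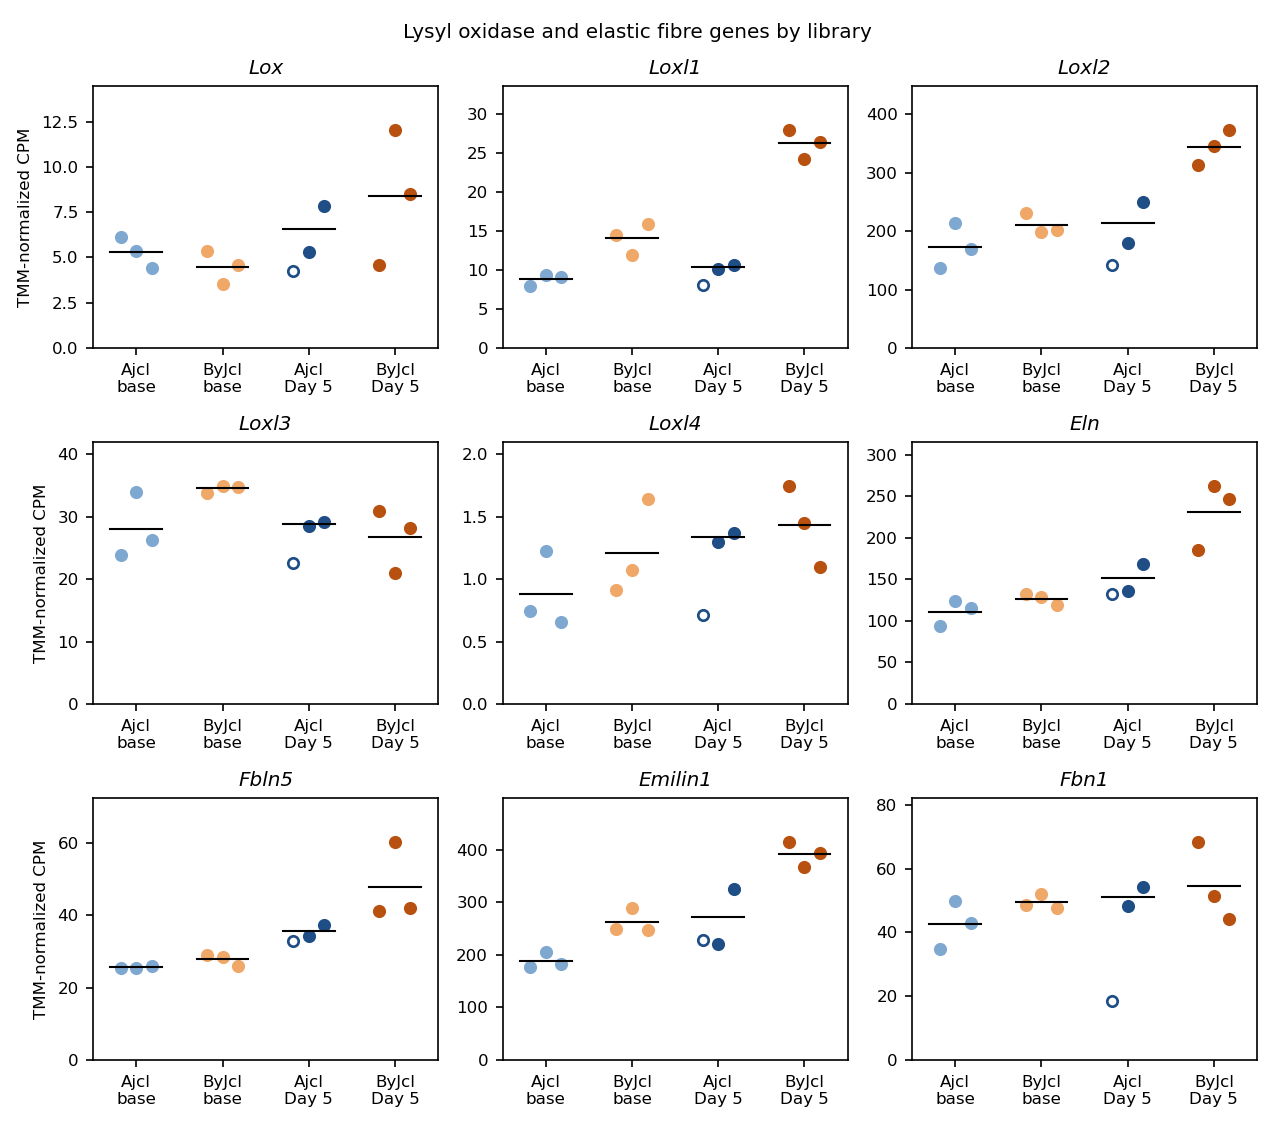
TMM-normalized CPM (vertical axes, linear from 0) of the 9 genes in the 12 libraries, with groups on the horizontal axes and 1 point per library. Lines are group means without Ajcl Day 5 replicate 1, which is the open point, and the 3 ByJcl Day 5 points of Loxl1 (24.2 to 27.9 CPM) lie above all others.

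Loxl1, the lysyl oxidase most closely tied to elastic fibre upkeep, was higher in ByJcl than in Ajcl glomeruli at Day 5. At baseline it was at 7.88, 9.37 and 9.12 CPM in the Ajcl libraries and at 14.5, 11.9 and 15.8 CPM in the ByJcl libraries. At Day 5 it was at 8.12, 10.1 and 10.6 CPM in Ajcl replicates 1 to 3 and at 27.9, 24.2 and 26.4 CPM in ByJcl. Every ByJcl library was therefore above every Ajcl library at both times, and the lowest ByJcl Day 5 library was above the highest ByJcl baseline library.

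At Day 5, Loxl1 was 2.58-fold higher in ByJcl than in Ajcl, a log2 difference of 1.37 (SE 0.17, edgeR adjusted p = 0.0105, higher in 3 of 3 libraries against 2). It was the only member called in this comparison, in which 0.165% of all tested genes were called. With Ajcl Day 5 replicate 1 included the difference was 1.48 (edgeR adjusted p = 0.00241), Loxl1 was again the called member, and 0.433% of genes were called. The call was lost without Ajcl Day 5 replicate 2 (difference 1.31, edgeR adjusted p = 0.223), which leaves 1 Ajcl library whose spread is taken from the other groups, and in a fit on the Day 5 libraries alone (edgeR adjusted p = 0.0855).

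At baseline no member was called by edgeR, against 0.159% of all tested genes. Loxl1 was 1.62-fold higher in ByJcl, a log2 difference of 0.70 (SE 0.15, edgeR adjusted p = 0.193), and DESeq2 on the same libraries called it (adjusted p = 0.00549), as it did 0.594% of genes. With Emilin1, 2 members were below an unadjusted edgeR p of 0.05, where 8.34% of all genes were. Emilin1 stood at a log2 difference of 0.50 (SE 0.15, edgeR adjusted p = 0.515). Its libraries were at 176 to 204 CPM in Ajcl and 247 to 289 CPM in ByJcl, without overlap. For Fbln5 the gap was narrow, 25.4 to 26.0 CPM in Ajcl against 26.0 to 29.1 CPM in ByJcl, ranges that meet at 3 digits. With Loxl1 these made 3 members whose baseline libraries lay apart and higher in ByJcl, where 8.22% of all tested genes did so.

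The remaining members did not pass the test between substrains at Day 5. Loxl2, which acts on collagen IV of basement membranes among other substrates, was at 179 and 250 CPM in the tested Ajcl libraries and at 314, 346 and 374 CPM in ByJcl, a log2 difference of 0.71 (SE 0.20, edgeR adjusted p = 0.185). Eln had a log2 difference of 0.63 (SE 0.17, edgeR adjusted p = 0.168), Emilin1 of 0.55 (SE 0.17, adjusted p = 0.216) and Fbln5 of 0.45 (SE 0.16, adjusted p = 0.274). These values moved with single libraries. The Emilin1 difference was 0.89 and called without Ajcl Day 5 replicate 3 (edgeR adjusted p = 0.0340), and 0.27 without Ajcl Day 5 replicate 2. Each of these fits has 1 Ajcl Day 5 library, whose spread is taken from the other groups, and the one without replicate 3 called 1.23% of all genes. That of Loxl2 was 0.47 without Ajcl Day 5 replicate 2, and that of Fbln5 was 0.25 without ByJcl Day 5 replicate 2. For these 4 genes and Loxl1 all ByJcl libraries lay above all Ajcl libraries, whether 11 or 12 libraries were used. Of all tested genes 15.1% lay apart in that direction with 11 libraries and 8.92% with 12. DESeq2 called Loxl1, Loxl2 (adjusted p = 0.0264) and Eln (adjusted p = 0.0268), 3 members where it called 3.15% of all genes. The members' median log2 difference was 0.45, and that of all tested genes 0.00.

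Lox, Loxl3, Loxl4 and Fbn1 overlapped between the substrains at Day 5. Fbn1, the main subunit of microfibrils, was at 48.2 and 54.1 CPM in the tested Ajcl libraries and at 44.1 to 68.4 CPM in ByJcl, with a log2 difference of 0.13 whose 95% interval ran from -0.31 to 0.56. In Ajcl Day 5 replicate 1 Fbn1 was at 18.4 CPM, its lowest level of all, and with that library the difference was 0.48 (edgeR adjusted p = 0.461). Loxl3 had a difference of -0.08 (95% interval -0.49 to 0.33), which turned to 0.028 with that library.

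**Figure D2:**
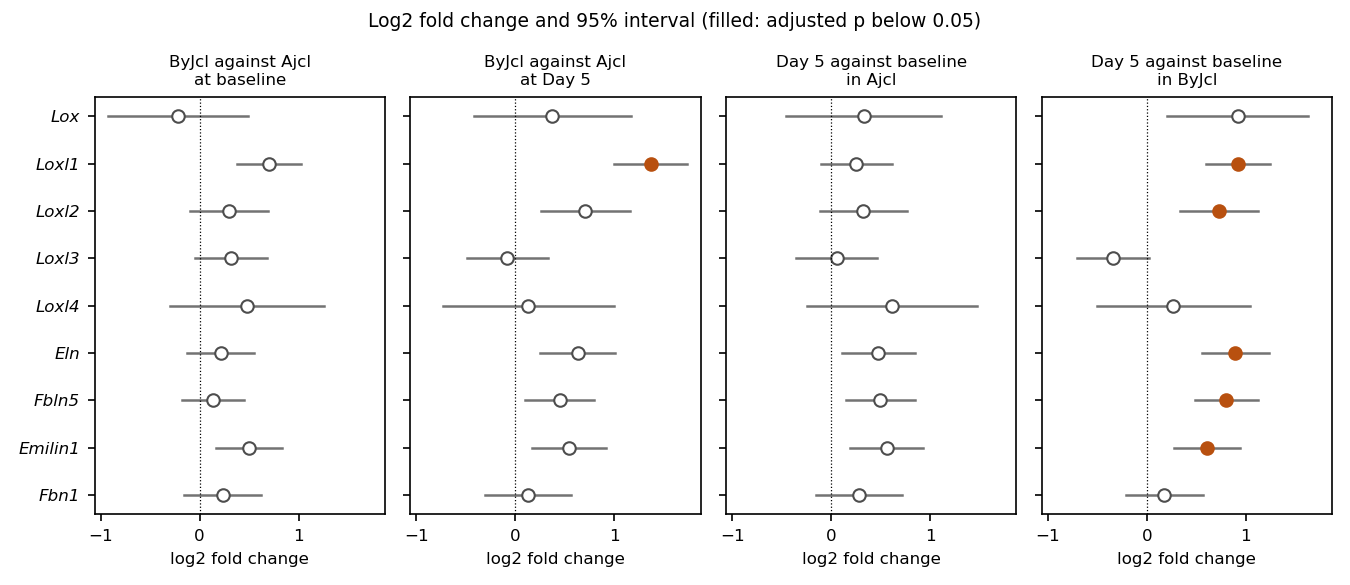
Log2 fold change (horizontal axes) of the 9 genes in the 2 substrain and 2 treatment comparisons, with 95% intervals from the edgeR fit on 11 libraries as bars. Filled points passed an adjusted p of 0.05: Loxl1 alone between substrains at Day 5, and Loxl1, Loxl2, Eln, Fbln5 and Emilin1 after ADR in ByJcl.

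After ADR, 5 of the 9 members rose in ByJcl and none passed the test as lower. edgeR called 10.6% of all tested genes in this comparison, and 5.75% as higher. Loxl1 rose 1.90-fold, a log2 change of 0.92 (SE 0.15, edgeR adjusted p = 0.00397), and Eln 1.86-fold, a change of 0.89 (SE 0.15, edgeR adjusted p = 0.00601). Fbln5 rose 1.75-fold, a log2 change of 0.81 (SE 0.14, edgeR adjusted p = 0.00674). Each of these 3 was also called under all 20 alternative fits. Loxl2 rose by a log2 change of 0.73 (SE 0.18, edgeR adjusted p = 0.0273) and Emilin1 by 0.61 (SE 0.15, edgeR adjusted p = 0.0279). Both calls were close to the threshold and each held in 14 of the 20 alternatives. Loxl2 missed it with all 12 libraries (edgeR adjusted p = 0.0528, 7.21% of genes called) and without ByJcl baseline replicate 2 or 3 or ByJcl Day 5 replicate 2 or 3 (edgeR adjusted p from 0.0517 to 0.102). Emilin1 missed it without any of the ByJcl baseline libraries or ByJcl Day 5 replicate 1 or 2 (edgeR adjusted p from 0.0578 to 0.0902). Both also missed it with the replicate number as a block over 12 libraries (edgeR adjusted p = 0.0610 and 0.0518).

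Eln was at 133, 128 and 119 CPM in the ByJcl baseline libraries and at 186, 263 and 246 CPM at Day 5. Fbln5 was at 29.1, 28.4 and 26.0 CPM before and at 41.1, 60.2 and 41.9 CPM after. Emilin1 was at 250, 289 and 247 CPM before and at 415, 366 and 394 CPM after. For Loxl2 the libraries were at 232, 199 and 202 CPM before and at 314, 346 and 374 CPM after. In these genes, as in Loxl1, every Day 5 library was above every baseline library, with Fbln5 highest in replicate 2. Of all tested genes 15.9% lay apart in that direction.

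Lox was at 5.34, 3.56 and 4.58 CPM in ByJcl baseline and at 4.61, 12.1 and 8.51 CPM at Day 5. Replicate 1 stayed within the baseline range while the others were above it. The log2 change of 0.92 was of the same size as that of Loxl1 but with an SE of 0.32 (edgeR adjusted p = 0.0947), and Lox was called by DESeq2 (adjusted p = 0.0306), which called 15.8% of genes, and without ByJcl Day 5 replicate 1 (edgeR adjusted p = 0.0214). Loxl3 was at 33.8, 35.0 and 34.8 CPM before and at 31.0, 21.0 and 28.1 CPM after, all lower, as in 17.7% of all tested genes. Its log2 change of -0.34 (SE 0.17) had an edgeR adjusted p of 0.216. Fbn1 had a log2 change of 0.18 (95% interval -0.21 to 0.57) and Loxl4 of 0.27 (95% interval -0.50 to 1.04). The members' median log2 change was 0.73, and that of all tested genes 0.01.

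The makeup of the lysyl oxidase family was compared as shares. Loxl1 made up 5.52% ± 0.652 of the summed level per kb in Ajcl baseline, 7.07% ± 0.929 in ByJcl baseline, 5.64% ± 0.748 in Ajcl Day 5 and 8.66% ± 1.02 in ByJcl Day 5 (SD, n = 3 libraries). The Loxl3 share was 14.7% ± 0.589 and 14.7% ± 1.24 at baseline in Ajcl and ByJcl, 13.3% ± 1.89 in Ajcl Day 5 and 7.48% ± 1.66 in ByJcl Day 5. The ByJcl Day 5 libraries, at 5.91% to 9.23%, were below all other libraries for Loxl3. Shares have Loxl2 in their denominator, and no test was made of them.

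**Figure D3:**
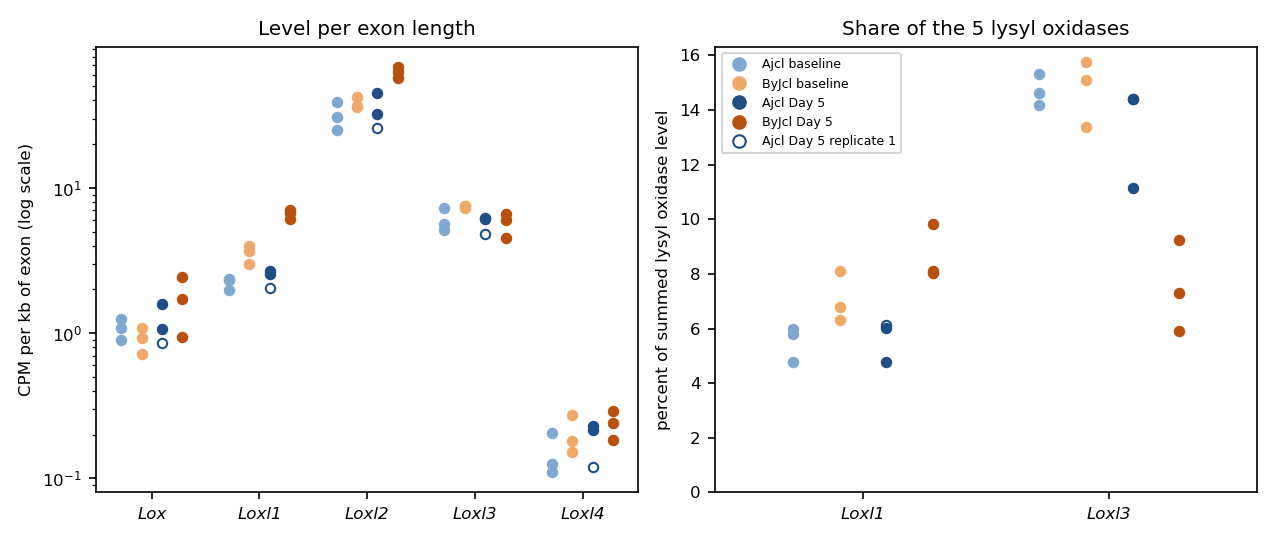
Left, CPM per kb of exon of the 5 lysyl oxidases on a log axis, 1 point per library and 4 groups per gene. Right, the percent of the summed level held by Loxl1 and Loxl3, where the Loxl3 share in ByJcl Day 5 (5.91% to 9.23%) lies below that of the other groups (11.1% to 15.8%).

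In Ajcl no member was called after ADR by edgeR, against 0.312% of all tested genes, and none by DESeq2, against 1.77%. Emilin1, Fbln5 and Eln were the 3 members with an unadjusted edgeR p below 0.05, where 9.80% of all genes were. Emilin1 had the smallest adjusted p, with a log2 change of 0.56 (SE 0.17, edgeR adjusted p = 0.258), from 176, 204 and 183 CPM at baseline to 220 and 325 CPM in the tested Day 5 libraries. Without Ajcl Day 5 replicate 2 it was called (change 0.82, edgeR adjusted p = 0.0321), in a fit with 1 Ajcl Day 5 library, whose spread is taken from the other groups, that called 1.01% of all genes. Fbln5 had a log2 change of 0.50 (SE 0.16, edgeR adjusted p = 0.286), from 25.4 to 26.0 CPM at baseline to 34.1 and 37.3 CPM. Eln had a change of 0.48 (SE 0.17, edgeR adjusted p = 0.341), from 94.0, 124 and 116 CPM to 136 and 169 CPM. Fbln5, Eln and Emilin1 also lay apart and higher at Day 5 with Ajcl Day 5 replicate 1 in its group. With 11 libraries 5 members lay apart and higher (these 3, Loxl1 and Loxl4), against 13.3% of all tested genes, and with 12 libraries 3 members, against 6.59%.

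Loxl1 in Ajcl had a log2 change of 0.25 (95% interval -0.10 to 0.61, edgeR adjusted p = 0.690), while its interval in ByJcl ran from 0.60 to 1.24. The change in Ajcl was 0.16 to 0.32 with single libraries left out, and 0.13 with Ajcl Day 5 replicate 1 (edgeR adjusted p = 0.899). Its tested Ajcl Day 5 libraries (10.1 and 10.6 CPM) lay above its Ajcl baseline libraries (at most 9.37 CPM), but replicate 1 (8.12 CPM) did not. The difference between the changes in ByJcl and Ajcl was tested directly, as the substrain by treatment interaction. For Loxl1 it was 0.67 (SE 0.22) with an unadjusted edgeR p of 0.0109, the only one below 0.05 among the members, and an adjusted p of 0.620. With Ajcl Day 5 replicate 1 the interaction of Loxl1 was 0.81 (edgeR adjusted p = 0.983). In that fit 2 members were below an unadjusted p of 0.05, where 4.82% of all genes were. No member was called for the interaction, as 0.0% of all tested genes were. Over all genes edgeR found 1363 with an unadjusted p below 0.05, and DESeq2 called 22, which is 0.129%, none of them a member. The interaction was 0.42 for Eln, 0.41 for Loxl2, 0.31 for Fbln5 and 0.05 for Emilin1 (95% interval -0.45 to 0.54). With single libraries left out, the interaction ran from -0.21 to 0.41 for Emilin1, from 0.26 to 0.64 for Eln, from 0.18 to 0.72 for Loxl2 and from 0.11 to 0.43 for Fbln5. The change in Ajcl ran from 0.20 to 0.82 for Emilin1 and from 0.26 to 0.64 for Eln. A greater rise in ByJcl than in Ajcl was thus not established for any member. The substrain and treatment comparisons share libraries with one another and are not independent.

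Other genes of elastic fibres and of lysyl oxidase action were read from 3 lists. Of 24 tested partners of elastic fibres and microfibrils, 4 rose and 3 fell in ByJcl after ADR, where 10.6% of all tested genes were called and 5.75% as higher, and none was called in the other comparisons. Vcan, the proteoglycan versican that binds fibrillin, went from 0.426, 0.345 and 0.370 CPM to 1.77, 4.49 and 2.65 CPM, a log2 change of 2.98 (SE 0.53, edgeR adjusted p = 0.00662) at a low level. Adamtsl4, which binds fibrillin-1, rose by 0.94 (SE 0.21, edgeR adjusted p = 0.0186), and the fibulins Fbln2 by 0.82 (SE 0.11, adjusted p = 0.00213) and Efemp1 by 0.47 (SE 0.12, adjusted p = 0.0284). Ltbp4, which guides fibulin-5 onto microfibrils, fell by 0.76 (SE 0.16, edgeR adjusted p = 0.0157). Fbln7 fell by 1.02 (SE 0.19, adjusted p = 0.00784) and Adamts10 by 0.50 (SE 0.13, adjusted p = 0.0311). The median change of the list was 0.10. In Ajcl the changes of these genes did not pass the test, but Vcan was at 2.47 (SE 0.58, edgeR adjusted p = 0.136), Adamtsl4 at 0.99 (SE 0.23, adjusted p = 0.136) and Fbln2 at 0.64 (SE 0.12, adjusted p = 0.0641). There Fbln7 was at -0.66, Efemp1 at 0.41, Ltbp4 at -0.41 and Adamts10 at -0.03 (edgeR adjusted p from 0.279 to 0.967). No interaction was called for any gene of the list, so a difference between the substrains was not shown.

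Ltbp4 and Fbln5 thus moved in opposite directions in ByJcl. In Ajcl their log2 changes were -0.41 and 0.50, neither called. Ltbp4 was at 409, 456 and 396 CPM in ByJcl baseline and at 311, 193 and 225 CPM at Day 5, and its lowest library, replicate 2, was the highest for Fbln5. In replicates 1 and 3 Fbln5 was at 41.1 and 41.9 CPM. Of 9 tested genes of lysyl oxidase maturation and copper supply, 1 was called in ByJcl after ADR, near the 10.6% of all tested genes, and it was Fn1. Fibronectin, its product, is a matrix scaffold known to promote processing of the Lox propeptide, and Fn1 rose by 1.14 (SE 0.27, edgeR adjusted p = 0.0220) in ByJcl, where its libraries spanned 10.9 to 14.8 CPM at baseline and 24.6 to 34.2 CPM at Day 5. The proteases and copper carriers Bmp1, Atp7a, Slc31a1 and Atox1 were not called. Of 10 tested genes of the elastin receptor and of elastin-degrading enzymes, Mmp2, a gelatinase that also cuts elastin, rose by 0.79 (SE 0.22, edgeR adjusted p = 0.0443) and no other was called, again near the share of all genes. In Ajcl, Fn1 was at 0.70 (edgeR adjusted p = 0.458) and Mmp2 at 0.26 (adjusted p = 0.804), and neither had a called interaction. Mfap4, Mfap5, Emilin3, Tll2 and Elane did not pass the filter on low counts, with at most 0.345 CPM in any library.

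**Figure D4:**
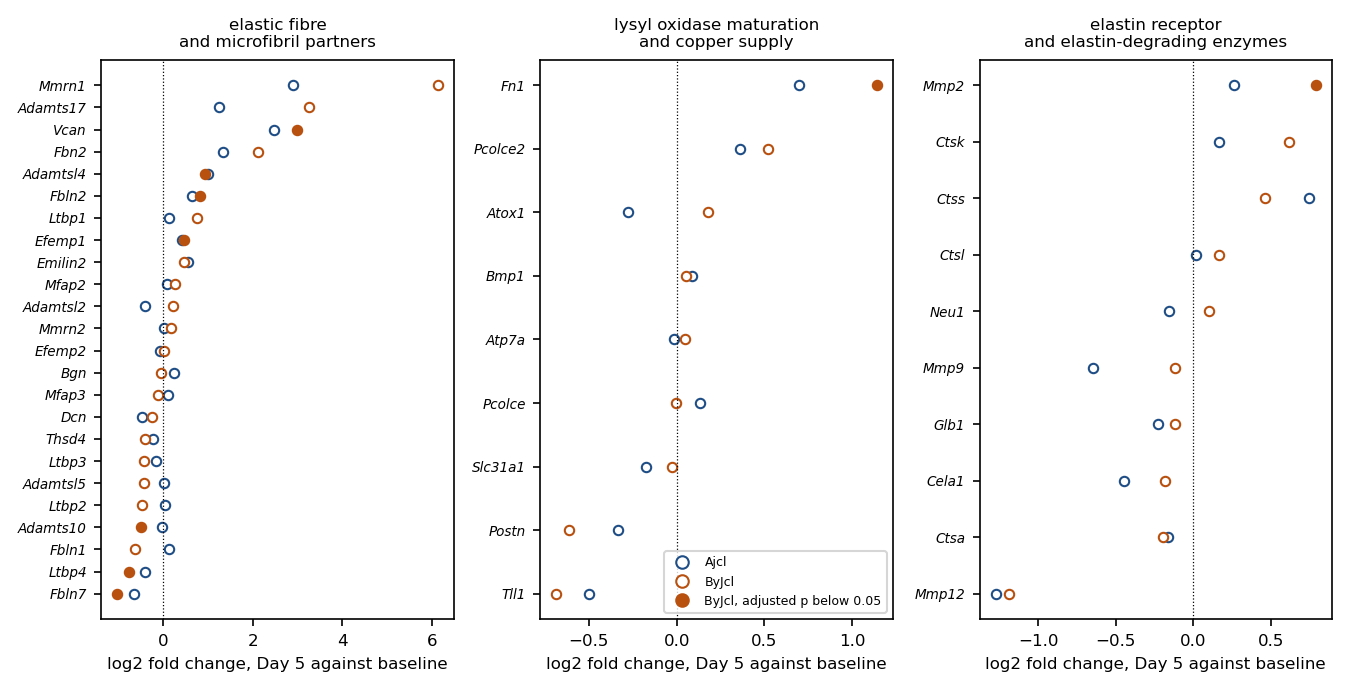
Log2 fold change at Day 5 against baseline (horizontal axes) of the tested genes of the 3 lists, in Ajcl (blue) and ByJcl (orange). Filled points passed an adjusted p of 0.05: in ByJcl 4 higher and 3 lower partners, Fn1 and Mmp2. No difference between the substrains passed the interaction test.

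Markers of the cell types that could carry these transcripts were summed in each library, since in bulk glomeruli fewer cells of a type and less RNA per cell cannot be told apart. Mylk gave 46.0% to 67.2% of the smooth muscle sum of 8 genes, in which Actg2 had at most 6 counts in a library. The sum was 1658 to 1786 CPM in ByJcl baseline and 1550 to 1608 CPM in ByJcl Day 5, while 4 of the 7 tested genes had a log2 change above 0 (median 0.11). In Ajcl it was 1483 to 1725 CPM at baseline and 1233 to 1477 CPM at Day 5, so at Day 5 every ByJcl library was higher, as for Loxl1, Loxl2, Eln, Emilin1 and Fbln5. The median log2 difference between the substrains at Day 5 was 0.29 over the smooth muscle list and 0.55 over the arterial endothelium list. The arterial endothelium sums overlapped at Day 5, at 841 to 972 CPM in the tested Ajcl libraries and 895 to 1152 CPM in ByJcl. Per 1000 CPM of smooth muscle markers, Loxl1 was 6.64 to 9.38 CPM in ByJcl baseline and 15.4 to 17.4 CPM in ByJcl Day 5, and Eln 70.6 to 80.2 against 116 to 168 CPM. Between the substrains at Day 5 the same ratio still lay apart for Loxl1 (6.85 and 7.79 in the tested Ajcl libraries) and for Loxl2 (121 and 184 in Ajcl against 195 to 241 in ByJcl). It overlapped for Eln (91.8 and 125 in Ajcl), for Emilin1 (149 and 239 in Ajcl against 234 to 258 in ByJcl) and for Fbln5 (23.1 and 27.5 in Ajcl against 25.6 to 38.4 in ByJcl). Per 1000 CPM of mesangium markers, Loxl1, Loxl2 and Emilin1 (101 and 140 in Ajcl against 146 to 191 in ByJcl) lay apart at Day 5. Eln (62.3 and 72.7 against 65.5 to 137) and Fbln5 (15.7 and 16.0 against 14.5 to 31.4) overlapped. At baseline Loxl1 lay apart per smooth muscle (5.31 to 5.99 in Ajcl) but overlapped per mesangium (3.61 to 4.54 in Ajcl against 4.51 to 7.28 in ByJcl). The part of smooth muscle and mesangium in the members' values was not tested. Within the smooth muscle list Tagln was called higher in ByJcl after ADR (log2 change 1.31, SE 0.16, edgeR adjusted p = 0.00163) and between substrains at Day 5 (1.15, SE 0.18, adjusted p = 0.0436), and Mylk fell by 0.44 in ByJcl after ADR (SE 0.12, adjusted p = 0.0432). No gene of the mesangium or arterial endothelium lists was called in any comparison, and the mesangium sum was 2172 to 2631 CPM before and 1920 to 2839 CPM after ADR in ByJcl. The glomerular endothelium sum (6 genes) was 11315 to 13210 CPM in ByJcl baseline and 9219 to 9946 CPM in ByJcl Day 5, and Ehd3 of that list fell by 0.81 (SE 0.20, edgeR adjusted p = 0.0271).

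Pi16 gave 45.1% to 72.1% of the fibroblast and adventitia sum of 8 genes, while the fibroblast markers Dpt and Lum had at most 16 and 10 counts in any library. That sum was 1142 to 1245 CPM in ByJcl baseline and 526 to 827 CPM in ByJcl Day 5, and 964 to 1184 CPM in Ajcl baseline and 869 to 947 CPM in the tested Ajcl Day 5 libraries. In ByJcl after ADR 1 of its 7 tested genes, Col1a2, fell (log2 change -2.16, SE 0.24, edgeR adjusted p = 0.00120). The parietal epithelium sum (6 genes, with 39.8% to 84.3% from Akap12) was 400.0 to 825 CPM in ByJcl Day 5 and 229 to 310 CPM in the other 3 groups. The list's median log2 change in ByJcl was 0.063, with 4 of 6 genes above 0, and its median difference between substrains at Day 5 was -0.18, with 2 of 6 above 0. Of that list Akap12 and Cldn1 rose in ByJcl (edgeR adjusted p = 0.0138 and 0.0213), and the part of this list in the members' rise was not tested. The immune sum (6 genes, with 56.4% to 75.1% from Lyz2) was 49.8 to 106 CPM in ByJcl libraries and 13.2 to 45.9 CPM in Ajcl libraries, a split like that of Loxl1. Of this list Cd68 rose in ByJcl after ADR by 1.17 (SE 0.24, edgeR adjusted p = 0.0128), while 3 of 6 genes were above 0 (median 0.15), and the part of the list in the Loxl1 difference was not tested. All 8 podocyte markers fell in ByJcl after ADR, with a median log2 change of -1.20. In Ajcl after ADR their median log2 change was -0.40, and at Day 5 their median difference between substrains was -0.66, with 0 of 8 above 0 in either comparison. At baseline the median difference between substrains was 0.22 for podocyte and 0.20 for mesangium markers, with all genes of both lists above 0. It was -0.93 for tubule markers, with 0 of 6 above 0, and -0.03 for smooth muscle markers, with 3 of 7 above 0. The tubule sum was 323 to 1514 CPM in ByJcl and 1009 to 3736 CPM in Ajcl. The part of these and of the fibroblast list in the members' values was not tested.

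**Figure D5:**
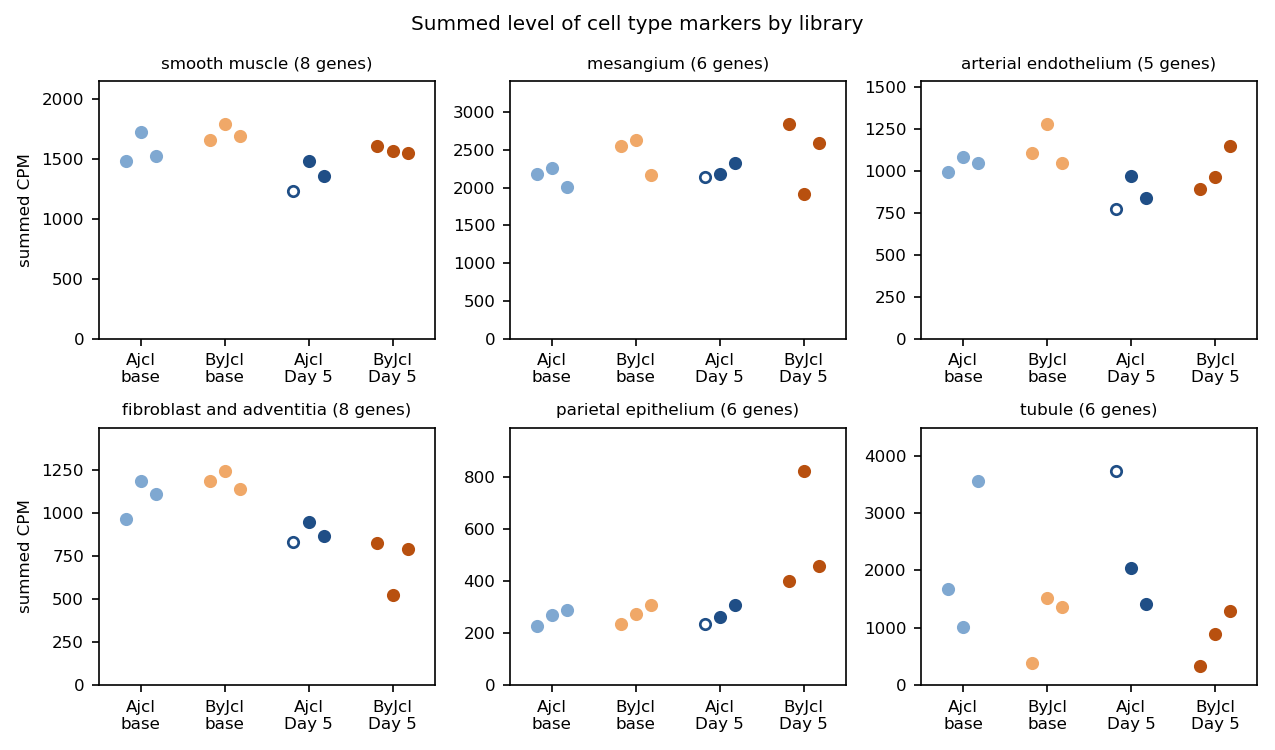
Summed CPM (vertical axes, linear from 0) of marker genes of 6 cell types in each library, by group, with Ajcl Day 5 replicate 1 as the open point. The parietal epithelium sum is highest in the 3 ByJcl Day 5 libraries (400.0 to 825 CPM), where the fibroblast and adventitia sum is lowest (526 to 827 CPM).

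For 4 of the 9 members, Emilin1, Fbln5, Fbn1 and Loxl4, promoter sequence was taken from RefSeq (GRCm38.p6), 5 promoters in all. Emilin1 and Fbln5, which rose in ByJcl, are shown with the 250 bases before the start in the direction of the gene, Fbln5 at the more upstream of its 2 starts, with motif matches in capitals. They were on the plus strand at chr5:30913536-30913785 and on the minus strand at chr12:101819120-101819369.
Emilin1: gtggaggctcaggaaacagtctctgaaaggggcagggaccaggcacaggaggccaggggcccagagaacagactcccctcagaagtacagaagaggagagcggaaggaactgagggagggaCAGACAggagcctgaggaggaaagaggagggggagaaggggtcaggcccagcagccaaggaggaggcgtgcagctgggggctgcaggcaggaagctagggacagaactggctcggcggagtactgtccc
Fbln5: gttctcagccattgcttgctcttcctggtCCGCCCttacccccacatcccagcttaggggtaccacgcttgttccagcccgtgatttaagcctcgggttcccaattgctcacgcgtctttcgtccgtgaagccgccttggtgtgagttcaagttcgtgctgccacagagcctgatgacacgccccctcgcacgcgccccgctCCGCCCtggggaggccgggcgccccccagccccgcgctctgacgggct
Both strands were searched from 250 bases before to 50 after the start for 6 motifs. They were CATTCC (known to bind TEAD factors), GTCTAGAC and the shorter CAGACA (known to bind SMAD factors), GGGCGG (Sp factors), TATAAA (the TATA box) and the CArG box of serum response factor. No matches overlapped. Emilin1 held 1 CAGACA, a short motif found in 21.0% of 32851 promoters of the same length. This start of Fbln5 held 2 GGGCGG on its other strand, as 35.7% of promoters hold at least 1. The promoters of Loxl4 and Fbn1, which edgeR called in no comparison, held 3 and 1 GGGCGG. The more downstream start of Fbln5 held 1 CAGACA, and the CArG box (in 1.63% of promoters) was in none of the 5.

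Genes whose profile over the 12 libraries was most like that of Loxl1 were named by the root mean square difference of log2(CPM + 1), each gene centred on its mean, among 11399 genes. They were Ptgir (0.20), the prostacyclin receptor, then Zfp809 (0.24) and Ccdc158 (0.25), against a spread of 0.60 for Loxl1 itself. Ptgir averaged 6.84 CPM in Ajcl baseline, 7.06 CPM in Ajcl Day 5 and 18.5 CPM in ByJcl Day 5, and ByJcl baseline lay between, the order of groups also seen for Loxl1. For Eln, with a spread of 0.43, they were Tmbim1 (0.11), Tmem43 (0.13) and Myadm (0.13). For Lox the nearest were Ugcg (0.19), Camk2d (0.21) and Spin4 (0.21), against a spread of 0.41, so likeness was looser there.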

How the data were processed

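Glomerular poly(A) RNA was sequenced as strand-specific paired reads of 150 bases in 12 libraries. Per the submitters' processing notes, Trimmomatic was used for trimming, STAR for alignment on GRCm39 and featureCounts for gene counts. The values the authors deposited are raw counts per gene symbol, not normalized or pooled, and they come in separate tables for baseline and Day 5, so a difference in table processing cannot be told apart from ADR. Annotation and strand setting are not given in the sources used here. Libraries were grouped from the submitters' labels, which give a single batch.

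Counts were fitted in R 4.3.3 with edgeR 4.0.16 (filterByExpr by group, TMM, quasi-likelihood F test, 1 coefficient per group, 11 libraries, 7 residual degrees of freedom), and p-values were adjusted by Benjamini-Hochberg over 17002 genes. The 5 contrasts were both substrain comparisons, both treatment comparisons and the interaction. The fit was tested on simulated data. Libraries of a group are separate samples by label. Animals are not named per library, so p-values measure the spread between these samples. Replicates differed well beyond sampling noise (chi-square per degree of freedom 47.1 to 290).

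Alternatives were all 12 libraries, DESeq2 1.42.0, RLE size factors, no filter, at least 1 CPM in 3 libraries, halved counts, the replicate number as a block, only the groups compared, and each library left out. Counts were halved because 77% or more of low counts were even numbers. Lengths are unions of GENCODE exons. The 9 members were all named, as were list genes called in any contrast and the 3 nearest profiles of Loxl1, Eln and Lox among genes with a mean of at least 5 CPM. Members, lists and markers were chosen with earlier results of these data known, and Loxl1 is a transcript the study itself singles out. The precision of comparisons is set by the number of libraries, not by a depth of 42198416 to 54687045 counts.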

Additional observations from a re-analysis of the deposited data

How the results depend on the processing

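Of the counts of called members, the baseline substrain count was 0 in the edgeR fit and 1 by DESeq2 (Loxl1). At Day 5 the substrain count was 1, against 3 by DESeq2 and 0 with only the groups compared, and leaving out single libraries gave 0 to 2. After ADR the count in Ajcl was 0, with 0 to 1 when libraries were left out, and in ByJcl 5, with 3 to 5 when libraries were left out and 6 by DESeq2 (15.8% of all genes). The interaction count was 0 under all 19 alternatives. Same-numbered libraries did not deviate together consistently (correlations of deviations from -0.387 to 0.531, with up to 0.580 between differently numbered ones), so the numbers were not taken as pairs. The replicate block left 0, 1, 0, 5 and 0 members called, where it called 0.112%, 0.112%, 0.153%, 9.36% and 0% of all genes. It moved the count in Ajcl over all genes from 53 to 26, and with 12 libraries left 3 members in ByJcl, where it called 6.68% of all genes. With Ajcl Day 5 replicate 1 the Loxl3 difference turned to 0.028 between substrains at Day 5 (0.036 with the block) and to -0.064 in Ajcl (-0.065). Fbn1 turned to -0.076 in Ajcl (-0.10) and to 0.27 for the interaction (0.32). Leaving out single libraries turned the sign in some fits of uncalled members: at Day 5 between substrains for Loxl3 (-0.23 to 0.068), Loxl4 (-0.062 to 0.31) and Fbn1 (-0.093 to 0.28), in Ajcl for Lox (-0.034 to 0.59) and Loxl3 (-0.062 to 0.23), in ByJcl for Fbn1 (-0.028 to 0.34), and for the interaction for Emilin1 (-0.21 to 0.41) and Fbn1 (-0.30 to 0.071). The causes were not tested.

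Over all genes, the 27, 28, 53 and 1800 calls became 101, 535, 301 and 2694 by DESeq2, 19, 72, 54 and 1197 with 12 libraries and 30, 56, 99 and 1705 with no filter. With only the groups compared they were 15, 6, 33 and 1610. Leaving out single libraries gave 12 to 29, 9 to 218, 11 to 180 and 680 to 2056 calls, the extremes of the Day 5 substrain and Ajcl counts coming without Ajcl Day 5 replicate 2 or 3, and 0 to 5 for the interaction. Group sizes of 2 and 3 libraries limit every comparison.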

Other observations

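The genes around Loxl1 were looked at after its values were seen. Within 250 kb of Loxl1 on chromosome 9 the tables held 13 other genes, of which 9 were tested, and edgeR called none of them in either substrain comparison. Of all tested genes it called 0.159% at baseline and 0.165% at Day 5, so a count of none says little. Their log2 differences between ByJcl and Ajcl ran from -1.51 to 0.44 at baseline and from -2.63 to 1.22 at Day 5. The lowest values belonged to 4930461G14Rik (at most 34 counts in a library), and the highest to Insyn1 at baseline (edgeR adjusted p = 0.631) and to Cd276, an immune checkpoint ligand, at Day 5 (adjusted p = 0.371). Mir6385, with at most 49 counts, was at -1.44 at baseline (edgeR adjusted p = 0.595).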
